A study of Mus musculus with 9 samples.

Results

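Wnt5a, receptors that bind it and the Van Gogh-like proteins of planar cell polarity were examined in cultured mouse NPK prostate cancer cells. The genes were chosen by symbol, with no measured value in the rule, but with earlier results of these data known. The rule names 10 genes: the ligands Wnt5a and Wnt5b, the receptors Ror1, Ror2, Ryk, Fzd1, Fzd2 and Fzd7, and Vangl1 and Vangl2. Values for 7 of the 10 were found among the 12842 genes of the deposited table, and all 7 passed the filter on low values. Wnt5b, Ror1 and Ror2 were not analysed here.

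The study addressed the role of the histone methyltransferase NSD2 in metastatic prostate cancer, and the libraries described here are RNA-seq profiles of NPK cells deposited with it. NPK cells were isolated from lung metastases of NPK mice, in which a tamoxifen-inducible Cre at the Nkx3.1 locus recombines the conditional alleles of the model and marks the cells with YFP, so all groups share these alleles and 1 Nkx3.1 allele is disrupted by the Cre. There were 9 libraries of polyadenylated RNA in 3 groups of 3: control NPK cells, NPK cells carrying an shRNA against Nsd2 (shNsd2), and NPK cells treated with a compound whose label begins with MCTP. In the titles, MCTP is followed by 39, 40 or 41, 1 library each, whereas the paper names only MCTP-39, which it calls a putative NSD2 inhibitor without concluding that it acts through NSD2, so whether the 3 MCTP libraries had different compounds or the same compound under a label that counts upwards cannot be told from the labels, and a difference between compounds and a difference between replicates cannot be told apart. The titles of the shNsd2 libraries all name Nsd2, while another label names Nsd2, Nsd3 and Nsd4 in turn, and the libraries were grouped by title. The paper describes independent shRNAs against Nsd2 and a control shRNA against luciferase for its silencing work, but which of them the cells of these libraries carried was not found, nor were the dose and time of MCTP treatment.

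Wnt5a is a secreted, lipid-modified ligand that signals mainly without stabilising beta-catenin. It binds Frizzled receptors together with co-receptors such as the Ror kinases and Ryk, and the signal passes through Dishevelled to c-Jun N-terminal kinase and intracellular calcium, which alter cell shape and movement. The Vangl proteins are core parts of planar cell polarity, the system that orients cells within the plane of a tissue, and in prostate cancer Wnt5a is best known for its links to invasion.

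The deposited values are on a log2 scale, 1 per gene and library, and the libraries had been scaled to each other by the authors. Read counts were not among the files, which leaves sequencing depth unknown, and precision was judged from the spread between replicates. Which transform was applied is not said. If it stabilized the variance, weakly expressed genes are drawn together, and their fold changes come out small. The MCTP group varied most. MCTP replicate 2 stood apart from the other libraries of its group: over all genes, the SD of its difference from the mean of the other MCTP replicates was 0.204 in log2 units, against 0.154 for MCTP replicate 3 and 0.0797 for MCTP replicate 1. The same measure lay between 0.0592 and 0.0922 in the shNsd2 libraries and between 0.0647 and 0.117 in the control libraries. Results for MCTP are therefore given with and without MCTP replicate 2 where it changes them. No source says that the libraries came from separate cultures, so p-values measure only the spread between these samples, which may be technical.

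The labelled cell type was set against marker genes. Values were found for 7 of 8 epithelial markers, and 6 of them lay above the filter, led by Krt8 with a mean log2 level of 16.28 in control cells. Epcam lay below the filter in control cells, with a mean log2 level of 3.55. The prostate luminal markers Hoxb13 and Tmprss2 lay above the filter, with mean log2 levels of 10.28 and 6.89 in control cells. All 7 mesenchymal markers lay above the filter, led by Vim at 17.21, so the cultures held RNA of epithelial and mesenchymal markers together. Bulk RNA does not show whether the same cells expressed both. Of 4 endothelial markers Cdh5 had values and stayed below the filter, of 4 leukocyte markers Cd68 had values, at a mean log2 level of 6.53, and of 6 fibroblast markers 3 had values, led by Col1a1 at 8.20 with Dcn below the filter at 2.33. None of the 4 lung epithelial markers was analysed here.

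The silenced gene, listed as Whsc1 and called Nsd2 here, had log2 levels of 12.48, 12.43 and 12.42 in control replicates 1 to 3, 11.56, 11.61 and 11.68 in the shNsd2 libraries, and 12.15, 12.21 and 12.07 in the MCTP libraries. All shNsd2 libraries lay below all MCTP libraries, and these below all control libraries. The mean level with shNsd2 was 56.4% ± 2.47 of the control level (SD, n = 3). Its log2 fold change was -0.83 with shNsd2 (SE 0.0408, limma adjusted p = 2.26e-06) and -0.30 with MCTP (SE 0.0537, limma adjusted p = 0.00562). A correction for transcript GC content, library by library, moved the MCTP value to -0.10, which was not past the threshold of 0.05 on the limma adjusted p (0.142, range over the 15 alternatives 0.000272 to 0.189). A correction for transcript length gave -0.17 (limma adjusted p = 0.0162).

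Wnt5a RNA was lower in cells with silenced Nsd2 and lay in between, overlapping both other groups, with MCTP. Its log2 level was 11.24, 11.17 and 11.20 in control replicates 1 to 3, 10.80, 10.79 and 10.92 with shNsd2, and 11.10, 11.19 and 10.92 with MCTP. Every shNsd2 library lay below every control library. MCTP replicate 2 lay within the control range, and MCTP replicate 3 lay just below the highest shNsd2 library. In bulk RNA, fewer cells that express a gene and less of its RNA per cell cannot be told apart.

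With shNsd2, Wnt5a was at 77.7% ± 3.96 of the control level (SD, n = 3), a log2 fold change of -0.36 (SE 0.0439, 95% interval -0.46 to -0.27, limma adjusted p = 0.000231). The exact two-sided permutation test gave p = 0.1, the smallest that 3 libraries against 3 can give. All 15 alternative settings kept this call, with log2 fold changes from -0.41 to -0.32. With MCTP the log2 fold change was -0.13 (SE 0.0739, 95% interval -0.30 to 0.04, limma adjusted p = 0.191), which did not pass the test, and the exact two-sided permutation test gave p = 0.2. Without MCTP replicate 2 the MCTP value was -0.19 and passed (limma adjusted p = 0.0185), whereas the alternatives ranged from -0.19 to -0.02 and in adjusted p from 0.0185 to 0.777. The shNsd2 and MCTP comparisons share the control libraries, so the treatments were also compared directly.

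Directly against MCTP, Wnt5a was lower with shNsd2 by a log2 fold change of -0.23 (SE 0.0777, 95% interval -0.41 to -0.05, limma adjusted p = 0.0441). The groups overlapped, since shNsd2 replicate 3 and MCTP replicate 3 had nearly the same level, and the exact two-sided permutation test gave p = 0.2. This call was lost in 5 of 15 alternatives. The limma adjusted p was 0.141 without MCTP replicate 1 and 0.134, 0.137 and 0.0591 without shNsd2 replicates 1, 2 and 3, with log2 fold changes of -0.22, -0.21, -0.21 and -0.27. The remaining alternative that lost it treated replicate numbers as blocks, and over all alternatives the adjusted p ran from 0.00209 to 0.141.

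**Figure D1:**
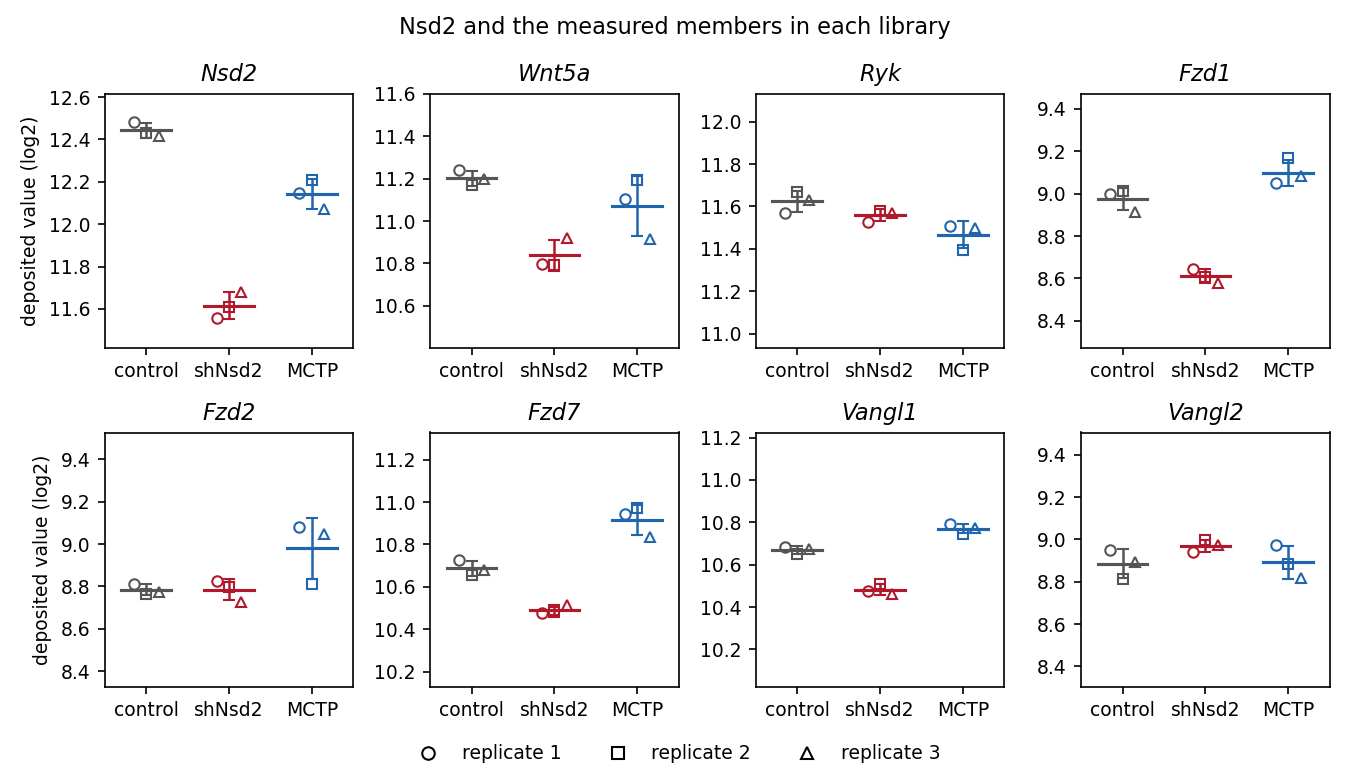
Log2 level (y axis, deposited value) of Nsd2 and of the 7 measured genes in each of 9 libraries, by group (x axis); open symbols are replicates 1 to 3, horizontal lines group means and bars 1 SD, and every panel spans the same log2 range. Wnt5a, Fzd1, Fzd7 and Vangl1 have all 3 shNsd2 libraries below all 3 control libraries.

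Among the receptors, Fzd1 and Fzd7 fell with shNsd2, while Ryk and Fzd2 did not pass the test in any comparison. Fzd1, Fzd2 and Fzd7 are closely related Frizzled proteins, the membrane receptors that bind Wnt ligands through an extracellular cysteine-rich domain. Fzd1 had log2 levels of 8.997, 9.011 and 8.915 in control replicates 1 to 3, 8.645, 8.607 and 8.581 with shNsd2, and 9.049, 9.168 and 9.083 with MCTP. The groups did not overlap: the shNsd2 libraries were lowest, the control libraries in between and the MCTP libraries highest. Fzd1 was at 77.7% ± 1.73 of the control level with shNsd2 (SD, n = 3), a log2 fold change of -0.36 (SE 0.0443, 95% interval -0.46 to -0.26, limma adjusted p = 0.000243). With MCTP the log2 fold change was 0.13 (SE 0.0590, 95% interval -0.01 to 0.26) and did not pass (limma adjusted p = 0.128), and it ran from 0.03 to 0.17 over the alternatives. It passed only under the length correction, at 0.16 (limma adjusted p = 0.0485, range over the alternatives 0.0485 to 0.723). Against MCTP, Fzd1 was lower with shNsd2 by -0.49 in log2 fold change (SE 0.0534, limma adjusted p = 0.000497).

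Fzd7 had log2 levels of 10.73, 10.66 and 10.68 in control replicates 1 to 3, 10.48, 10.48 and 10.52 with shNsd2, and 10.94, 10.97 and 10.84 with MCTP. As for Fzd1, the groups were ordered shNsd2, control, MCTP with no overlap. With shNsd2 the log2 fold change was -0.20 (SE 0.0359, 95% interval -0.28 to -0.12, limma adjusted p = 0.00214), or 87.3% ± 1.33 of the control level (SD, n = 3). With MCTP it was 0.23 (SE 0.0551, 95% interval 0.10 to 0.36, limma adjusted p = 0.0172), or 117% ± 5.75 of the control level (SD, n = 3), the only gene of the 7 that passed with MCTP.

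The rise of Fzd7 with MCTP was less firm than its fall with shNsd2, which passed in all 15 alternatives. It was lost without control replicate 2 (log2 fold change 0.21, limma adjusted p = 0.0801), control replicate 3 (0.22, limma adjusted p = 0.0664) or MCTP replicate 1 (0.21, limma adjusted p = 0.0782). It was also lost under the GC correction without the block (0.15, limma adjusted p = 0.0826) and with it (0.15, limma adjusted p = 0.0771), and its adjusted p over the 15 alternatives ran from 0.00335 to 0.0826. Directly against MCTP, Fzd7 was lower with shNsd2 by -0.43 in log2 fold change (SE 0.0514, limma adjusted p = 0.000768), in all alternatives.

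Fzd2 had log2 levels of 8.81, 8.77 and 8.78 in control replicates 1 to 3, 8.83, 8.80 and 8.73 with shNsd2, and 9.08, 8.81 and 9.05 with MCTP. The shNsd2 libraries spanned the control range and reached past it on each side, and MCTP replicate 2 lay with them while the other MCTP libraries were higher. The log2 fold change with shNsd2 was 0.0003 with a 95% interval of -0.098 to 0.099 (limma adjusted p = 0.996), and its sign changed in 6 of 15 alternatives. With MCTP it was 0.19 (SE 0.0784, 95% interval 0.01 to 0.38, limma adjusted p = 0.0863). Without MCTP replicate 2 it was 0.28 and passed (limma adjusted p = 0.00158), as it did in a fit of all 9 libraries (0.19, limma adjusted p = 0.0429). Over the 15 alternatives it ran from 0.10 to 0.28 and its adjusted p from 0.00158 to 0.271.

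Ryk, a Wnt co-receptor with a WIF domain outside the cell and an inactive kinase domain inside, had log2 levels of 11.57, 11.67 and 11.63 in control replicates 1 to 3, 11.53, 11.58 and 11.57 with shNsd2, and 11.51, 11.39 and 11.50 with MCTP. The MCTP libraries were below all others, and control and shNsd2 libraries overlapped. The log2 fold change was -0.065 with shNsd2 (95% interval -0.15 to 0.02, limma adjusted p = 0.182) and -0.16 with MCTP (95% interval -0.28 to -0.03, limma adjusted p = 0.0570). The MCTP value passed when all 9 libraries were fitted together (-0.16, limma adjusted p = 0.0193) and under the length correction (-0.17, limma adjusted p = 0.0307), and its adjusted p ran from 0.0193 to 0.196 over the alternatives. Directly against MCTP the difference was 0.091 (95% interval -0.02 to 0.21, limma adjusted p = 0.169), and 0.055 without MCTP replicate 2.

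Of the Van Gogh-like proteins, membrane proteins that recruit Prickle to the cell junction in planar polarity, Vangl1 fell with shNsd2 and Vangl2 did not. Vangl1 had log2 levels of 10.68, 10.65 and 10.67 in control replicates 1 to 3, 10.47, 10.51 and 10.46 with shNsd2, and 10.79, 10.75 and 10.77 with MCTP. The groups again did not overlap and were ordered shNsd2, control, MCTP. With shNsd2 the log2 fold change was -0.19 (SE 0.0343, 95% interval -0.26 to -0.11, limma adjusted p = 0.00219), or 87.9% ± 1.56 of the control level (SD, n = 3), and passed in all 15 alternatives. With MCTP it was 0.10 (SE 0.0457, 95% interval -0.0047 to 0.21, limma adjusted p = 0.116). It passed in the fit of all 9 libraries (0.10, limma adjusted p = 0.0449), under the GC correction (0.13, limma adjusted p = 0.0156) and under the length correction (0.20, limma adjusted p = 0.0247), and not in the other 12 of 15, in which the adjusted p reached 0.310. Directly against MCTP, Vangl1 was lower with shNsd2 by -0.29 (SE 0.0432, limma adjusted p = 0.00193), in all alternatives.

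Vangl2 had log2 levels of 8.949, 8.812 and 8.894 in control replicates 1 to 3, 8.942, 8.997 and 8.972 with shNsd2, and 8.973, 8.885 and 8.819 with MCTP. The 3 groups overlapped. The log2 fold change was 0.085 with shNsd2 (95% interval -0.02 to 0.19, limma adjusted p = 0.164) and 0.0078 with MCTP (95% interval -0.14 to 0.16, limma adjusted p = 0.933), and the MCTP value changed sign in 4 of 15 alternatives. Under the length correction the shNsd2 value was 0.12 and passed (limma adjusted p = 0.0401, range over the alternatives 0.0401 to 0.461), while it was 0.049 without control replicate 2 and 0.055 under the GC correction. Directly against MCTP it was 0.078 (95% interval -0.05 to 0.21, limma adjusted p = 0.297).

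With shNsd2, 4 of the 7 genes passed as lower (Wnt5a, Fzd1, Fzd7 and Vangl1) and 0 as higher. Over all 12205 genes tested, limma called 24.8% lower and 23.1% higher. Of all 5836 genes called with shNsd2 48.2% were higher, and 55.7% when libraries were centred on their medians. The median log2 fold change was -0.19 for the 7 genes and 0.0020 for all genes tested. With MCTP, 1 of 7 passed as higher (Fzd7) and 0 as lower, against 18% of 12216 genes higher and 17.2% lower, with medians of 0.10 and -0.0062. Of all 4305 genes called with MCTP 51.1% were higher, and 64.4% when libraries were centred on their medians. Without MCTP replicate 2, 2 of 7 were higher (Fzd2 and Fzd7) and 1 was lower (Wnt5a), where 29.8% of all genes tested were higher and 30.6% lower. The 7 genes are few and were chosen with earlier results of these data known, and no test of the list was made.

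Directly between the treatments, 4 of 7 genes (Wnt5a, Fzd1, Fzd7 and Vangl1) were lower with shNsd2 than with MCTP and 0 were higher, where 22.6% of 12217 genes were lower and 20.6% higher. The medians were -0.23 for the 7 genes and 0.0072 for all genes tested. Without MCTP replicate 2, Fzd2 passed as well, at -0.28 (limma adjusted p = 0.00113, range over the alternatives 0.00113 to 0.254), which made 5 of 7 lower, where 32.1% of all genes tested were lower. The main direct value of Fzd2 was -0.19 (95% interval -0.38 to -0.01, limma adjusted p = 0.0815), and it passed in 4 of 15 alternatives. By group means alone, Fzd1, Fzd7 and Vangl1 were lowest with shNsd2 and highest with MCTP, and Wnt5a was lowest with shNsd2 and highest in control cells. Of their differences between MCTP and control only that of Fzd7 passed, and a difference in pattern between genes was not tested.

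**Figure D2:**
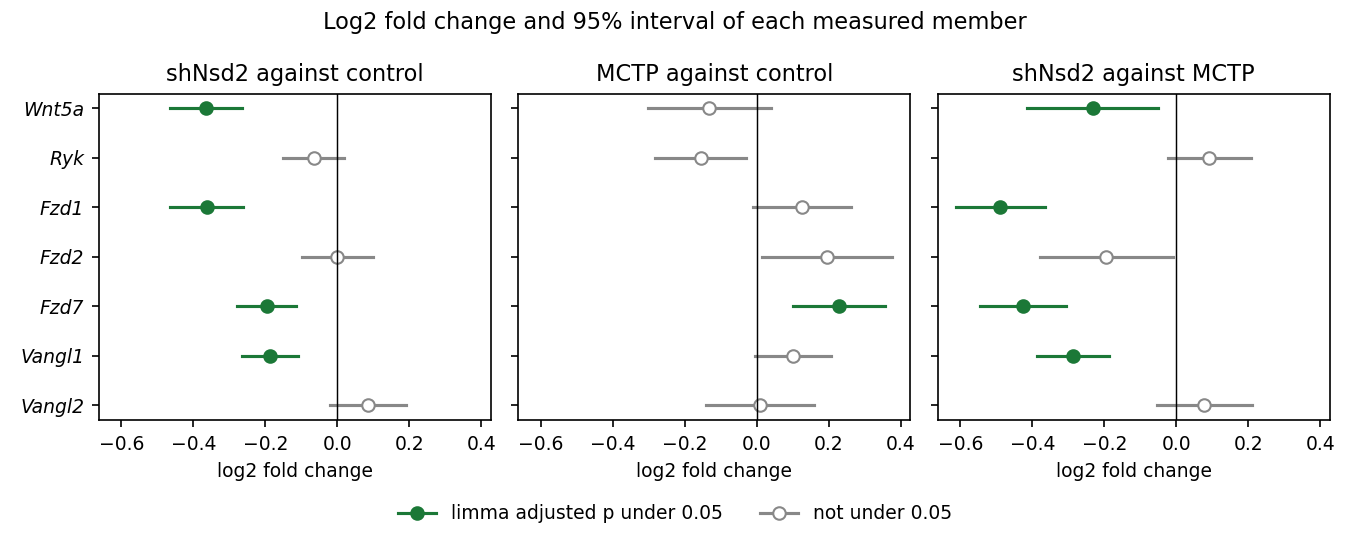
Log2 fold change (x axis) of the 7 measured genes (y axis) in the 3 comparisons; points are limma estimates, lines their 95% intervals, and filled green points have a limma adjusted p under 0.05. Fzd1, Fzd7 and Vangl1 lie at -0.36, -0.20 and -0.19 in shNsd2 against control and at -0.49, -0.43 and -0.29 in shNsd2 against MCTP.

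Levels were compared between genes per kilobase, by subtracting the log2 length in kb of the longest annotated transcript from the log2 level. In control cells Ryk was highest at 10.11 ± 0.0492 (log2 per kb, SD, n = 3), followed by Fzd7 at 8.51 ± 0.0359, Wnt5a at 8.39 ± 0.0347, Vangl1 at 7.96 ± 0.0178, Fzd2 at 6.91 ± 0.0252, Fzd1 at 6.90 ± 0.0520 and Vangl2 at 6.18 ± 0.0687. The neighbours Fzd2 and Fzd1 overlapped, and no other neighbours did. The order of the 7 means was the same in all 3 groups. With shNsd2 the log2 level per kb of Fzd1, 6.54 ± 0.0321, lay clear of Fzd2 at 6.91 ± 0.0511 (SD, n = 3), whereas with MCTP the pair overlapped again, at 7.03 ± 0.0613 and 7.11 ± 0.146. The ligand and Fzd7 lay closer together in control cells than with MCTP, where Fzd7 was at 8.74 ± 0.0717 and Wnt5a at 8.26 ± 0.140 (log2 per kb, SD, n = 3). Ranked by mean log2 level over the 9 libraries without regard to length, Ryk stood at the 83.1th percentile of the 12842 genes, Wnt5a at the 75th, Fzd7 at the 69.2th, and Vangl1 at the 68.1th. Vangl2, Fzd1 and Fzd2 lay between the 38th and the 38.7th, and their order by log2 level differed between the groups. An annotated gene on the opposite strand shares exon sequence with Wnt5a (Gm2670) and with Vangl1 (Gm16160), and since no source says that counting used the strand, reads of the partners cannot be told apart. Neither partner was analysed here.

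The genes whose pattern over the 9 libraries was most like that of Wnt5a were sought among 7731 genes that passed the filter and whose group means spanned at least 50% of the Wnt5a span of 0.36 log2 units. The 5 with the highest Pearson r with Wnt5a were 4931406P16Rik, F2r, Plekhh2, Ctnnal1 and Pdlim5, each with r = 0.99. This r describes libraries that fall into 3 groups, which share their treatment, and was not tested. F2r encodes a thrombin receptor, Ctnnal1 an alpha-catenin-like protein and Pdlim5 a PDZ and LIM domain protein. Their log2 fold changes with shNsd2 were -0.26, -0.33, -0.31, -0.28 and -0.38, in the order named. With MCTP they lay between -0.14 and -0.09, and without MCTP replicate 2 those of F2r, Plekhh2, Ctnnal1 and Pdlim5 were -0.18, -0.14, -0.18 and -0.21. The 5 genes were chosen on these same libraries for following Wnt5a with a wide span between groups, so the sizes of these differences follow in part from the choice, and no p is given. Among the genes examined, r with Wnt5a was 0.73 for Fzd1, 0.64 for Vangl1, 0.61 for Fzd7, 0.076 for Ryk, -0.073 for Fzd2 and -0.34 for Vangl2, and it was 0.94 for Nsd2.

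The promoters of Fzd1 and Fzd7 are shown because both receptors fell with shNsd2. Entries in the promoter table were found for 4 of the 7 genes (Ryk, Fzd1, Fzd7 and Vangl2) and not for Wnt5a, Fzd2 and Vangl1. The sequences are from RefSeq on GRCm38.p6, 250 bases before to 50 bases after the gene start, written 5′ to 3′ on the strand of the gene: chr5:4758167-4758466, minus strand, for Fzd1 and chr1:59481897-59482196, plus strand, for Fzd7. Capitals mark matches, on either strand, to any of the motifs searched: the TATA box spelled TATAAA, the GC box spelled GGGCGG, the CCAAT box, the TCF/LEF motif spelled CTTTGA and the E-box spelled CACCTG.
Fzd1: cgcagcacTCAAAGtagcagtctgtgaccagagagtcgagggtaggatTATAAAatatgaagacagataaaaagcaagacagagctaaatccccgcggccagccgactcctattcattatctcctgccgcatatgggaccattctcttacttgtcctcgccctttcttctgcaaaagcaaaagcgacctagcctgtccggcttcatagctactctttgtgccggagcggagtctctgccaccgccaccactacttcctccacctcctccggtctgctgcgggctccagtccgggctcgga
Fzd7: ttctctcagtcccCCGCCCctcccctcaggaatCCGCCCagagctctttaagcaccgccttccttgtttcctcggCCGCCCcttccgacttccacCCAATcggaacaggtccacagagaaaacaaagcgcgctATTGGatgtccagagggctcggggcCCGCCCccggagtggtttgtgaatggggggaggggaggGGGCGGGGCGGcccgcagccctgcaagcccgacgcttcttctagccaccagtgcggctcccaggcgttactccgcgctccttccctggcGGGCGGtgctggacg

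The Fzd1 window held 1 match to the TATA box and 1 to the TCF/LEF motif, and none to the other motifs searched. The Fzd7 window held 7 matches to the GC box, of which a neighbouring pair overlaps, and 2 to the CCAAT box, and none to the others. Matches to different motifs did not overlap in these windows. Of 32851 mouse promoters of the same length, 13.6% held the TATA box, 35.7% the GC box, 37.4% the CCAAT box, 16% the TCF/LEF motif and 20.2% the E-box. CpG dinucleotides numbered 16 in the Fzd1 window and 24 in the Fzd7 window, against a median of 7 over all promoters. The receptors that fell together thus had windows of different composition, at 54% and 66.7% GC. A match is a description of the letters only.

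The other genes of the pathway were taken from lists by role. Of 17 other Wnt ligands, 6 could be tested. With shNsd2, 3 were higher (Wnt4, Wnt7a and Wnt9a) and 2 lower (Wnt6 and Wnt10a), where 23.1% of all genes tested were higher and 24.8% lower. The 6 ligands had a median log2 fold change of 0.15. Wnt7a had log2 levels of 4.68, 4.68 and 4.69 in control replicates 1 to 3, 6.15, 6.08 and 6.24 with shNsd2, and 4.76, 4.72 and 4.89 with MCTP. It was higher in every shNsd2 library than in any other, a log2 fold change of 1.47 (SE 0.0415, limma adjusted p = 5.65e-07), opposite in direction to the fall of Wnt5a. Wnt7a was weakly expressed, at the 12.5th percentile of all genes by mean log2 level, against the 75th for Wnt5a. The call of Wnt9a with shNsd2 was lost in 6 of 15 alternatives, among them without control replicate 1 or 2 or shNsd2 replicate 1, and under the GC correction, which moved it from 0.15 to 0.096. That of Wnt10a was lost in 5 of 15, among them without control replicate 2 or 3 or shNsd2 replicate 2 or 3.

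With MCTP, 2 of the other ligands were higher (Wnt4 and Wnt9a) and 3 lower (Wnt6, Wnt7b and Wnt10a), with a median log2 fold change of -0.048. Of all genes tested, 18% were higher and 17.2% lower. Wnt7a was higher as well without MCTP replicate 2, where 29.8% of all genes tested were higher. Wnt4 rose by 0.94 in log2 fold change with MCTP (SE 0.101, limma adjusted p = 0.000669) and by 0.41 with shNsd2 (SE 0.0537, limma adjusted p = 0.000390). Wnt7b had log2 levels of 10.28, 10.57 and 10.64 in control replicates 1 to 3, 10.67, 10.65 and 10.66 with shNsd2, and 9.76, 9.53 and 9.66 with MCTP. The 3 groups did not overlap: the MCTP libraries were lowest by far and the shNsd2 libraries highest. Its log2 fold change was -0.85 with MCTP (SE 0.103, limma adjusted p = 0.00110) and 0.16 with shNsd2, which did not pass (limma adjusted p = 0.124, range over the alternatives 0.0362 to 0.247). The shNsd2 value was 0.056 without control replicate 1 and 0.096 under the GC correction, and at 0.23 it passed without control replicate 3. The MCTP value of Wnt6 was -0.20 (SE 0.0370, limma adjusted p = 0.00598), and -0.30 under the GC correction.

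Of 10 other receptors and co-receptors, 8 were tested. With shNsd2, 4 were lower (Fzd4, Fzd5, Lrp5 and Lrp6) and 0 higher, with a median log2 fold change of -0.15. Counted with Fzd1 and Fzd7, 6 of the 12 receptor genes tested were lower with shNsd2, where 24.8% of all genes tested were lower and 23.1% higher. Fzd4 had log2 levels of 8.50, 8.51 and 8.56 in control replicates 1 to 3, 8.05, 8.09 and 8.19 with shNsd2, and 7.81, 7.99 and 7.77 with MCTP. Each treated group lay below the control group, unlike for Fzd1 and Fzd7. It fell by 0.41 with shNsd2 (SE 0.0490, limma adjusted p = 0.000218) and by 0.67 with MCTP (SE 0.0686, limma adjusted p = 0.000559) on the log2 scale. Fzd5 fell by 0.40 with shNsd2 (SE 0.0420, limma adjusted p = 0.000112). The call of Lrp6 with shNsd2 was lost in 4 of 15 alternatives, among them without shNsd2 replicate 1 or 2 and in the fit of all 9 libraries.

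With MCTP, 4 of the 8 were higher, among them Fzd6 and Ptk7, and 3 lower (Fzd4, Lrp5 and Lrp6), with a median log2 fold change of 0.0051. Among all genes tested, 18% were higher and 17.2% lower. Fzd5 was lower as well without MCTP replicate 2, where 30.6% of all genes tested were lower. Apart from Fzd4, each of these named receptors lost its MCTP call when some library was left out. Lrp6 lost it without MCTP replicate 1, Fzd6 without control replicate 2 or 3 or MCTP replicate 1, and Ptk7 without control replicate 1 or 2 or MCTP replicate 1 or 3. Lrp5 lost it in 8 of 15 alternatives, among them when control replicate 1, 2 or 3 or MCTP replicate 1 or 3 was left out and when libraries were centred on their medians. The GC correction moved Lrp5 from -0.17 to -0.27 and Ptk7 from 0.26 to 0.16, and the length correction moved Lrp5 to -0.10, where it did not pass.

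Of 19 other planar polarity genes, 15 were tested. With shNsd2, 5 were higher and 7 lower, where 23.1% of all genes tested were higher and 24.8% lower. The 15 genes had a median log2 fold change of -0.06. Prickle1, the cytoplasmic partner of the Vangl proteins, had log2 levels of 8.64, 8.63 and 8.62 in control replicates 1 to 3, 8.35, 8.41 and 8.34 with shNsd2, and 9.05, 8.98 and 8.93 with MCTP. Like Vangl1, it was lowest with shNsd2 and highest with MCTP, with no overlap. Its log2 fold change was -0.26 with shNsd2 (SE 0.0402, limma adjusted p = 0.000793), 0.36 with MCTP (SE 0.0550, limma adjusted p = 0.00309) and -0.62 directly between them (SE 0.0536, limma adjusted p = 0.000165). Gpc4, a glypican that binds Wnt ligands at the cell surface, had the same order of group means, with log2 fold changes of -0.48 with shNsd2 (SE 0.0472, limma adjusted p = 8.05e-05) and 0.42 with MCTP (SE 0.0685, limma adjusted p = 0.00395). Wdpcp, a planar polarity effector, was at -0.40 with shNsd2 (SE 0.0386, limma adjusted p = 7.33e-05).

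The Dishevelled gene Dvl3 rose with shNsd2 by 0.37 in log2 fold change (SE 0.0416, limma adjusted p = 0.000168), and the planar polarity genes therefore did not move in 1 direction. With MCTP, 4 of the 15 were higher, among them Dvl3, Gpc4 and Prickle1, and 1 was lower (Celsr1), against 18% and 17.2% of all genes tested. The median log2 fold change of the 15 was 0.00020. The counts without MCTP replicate 2 were 4 and 2, against 29.8% and 30.6% of all genes tested. The MCTP call of Dvl3 was lost in 4 of 15 alternatives, among them without control replicate 2 or MCTP replicate 1 and under the GC correction, which moved it from 0.26 to 0.17. That of Celsr1 was lost in 5 of 15, among them without control replicate 2 or 3 or MCTP replicate 3 and under the length correction, which moved it from -0.23 to -0.072.

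Of 22 effectors that act without beta-catenin, 19 were tested. With shNsd2, 2 were higher and 6 lower, against 23.1% and 24.8% of all genes tested. The 19 effectors had a median log2 fold change of -0.039. Prkca, a calcium-dependent protein kinase C, had log2 levels of 10.60, 10.57 and 10.60 in control replicates 1 to 3, 9.98, 10.04 and 10.09 with shNsd2, and 10.29, 10.32 and 10.21 with MCTP. The 3 groups did not overlap, and the order was control, MCTP, shNsd2 from high to low, as for the means of Wnt5a. Its log2 fold change was -0.55 with shNsd2 (SE 0.0401, limma adjusted p = 1.6e-05) and -0.32 with MCTP (SE 0.0513, limma adjusted p = 0.00371), the latter -0.18 under the length correction (limma adjusted p = 0.0242, range over the alternatives 0.000291 to 0.0243). Daam2, a formin that binds Dishevelled, was at -0.31 with shNsd2 (SE 0.0411, limma adjusted p = 0.000405), and Camk2d, a calcium-dependent kinase, at -0.28 (SE 0.0462, limma adjusted p = 0.00124).

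Mapk8, which encodes a c-Jun N-terminal kinase, was at -0.24 with shNsd2 (SE 0.0590, limma adjusted p = 0.00920), a call lost only when all 9 libraries were fitted together (limma adjusted p = 0.0661, range over the alternatives 0.000257 to 0.0661). With MCTP, 1 effector was higher (Camk2g) and 3 were lower (Daam1, Mapk8 and Prkca), against 18% and 17.2% of all genes tested. The effectors tested had a median log2 fold change of -0.063. Leaving out MCTP replicate 2 made the counts 2 and 7, against 29.8% and 30.6% of all genes tested. The MCTP calls of Daam1 and Mapk8 were lost in 8 and 9 of 15 alternatives, among them when control replicate 1, 2 or 3 or MCTP replicate 1 or 3 was left out, and that of Camk2g in 6, among them without control replicate 1, 2 or 3 or MCTP replicate 1. The GC correction moved Mapk8 with MCTP from -0.32 to -0.10, where it did not pass.

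**Figure D3:**
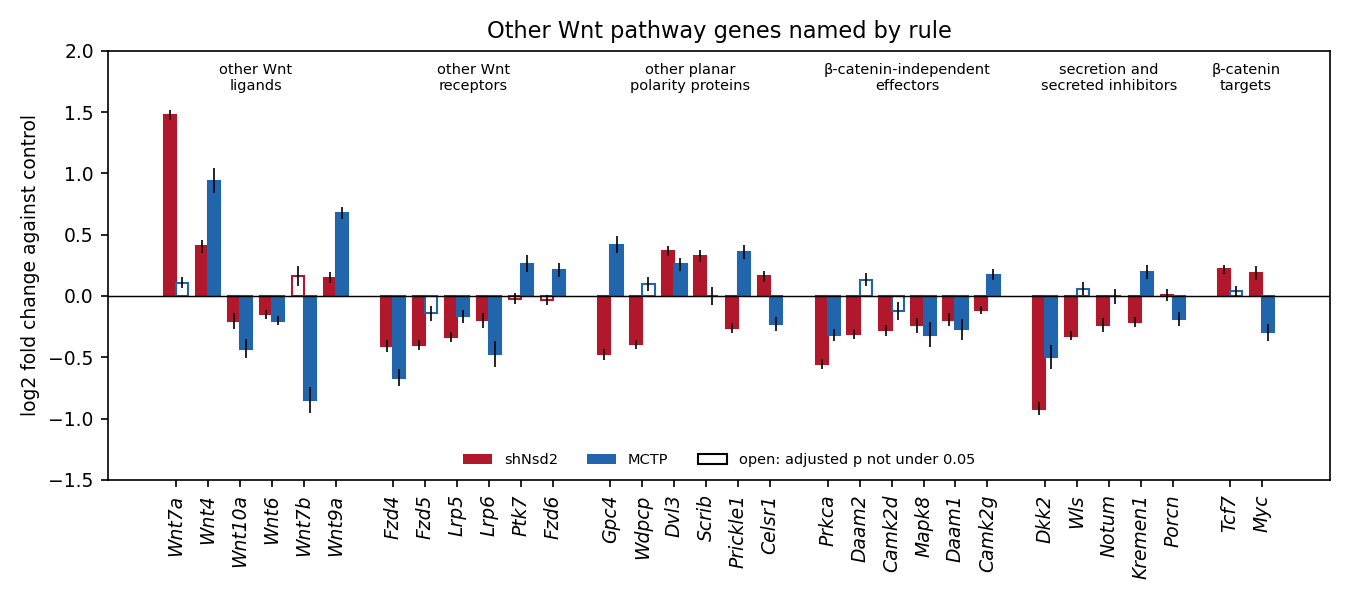
Log2 fold change against control (y axis) of the pathway genes named by rule (x axis, grouped by role) with shNsd2 (red) and MCTP (blue); bars are limma estimates, error bars 1 SE, and open bars have a limma adjusted p not under 0.05. Wnt7a at 1.47 with shNsd2 stands highest, and Gpc4 and Prickle1 lie on opposite sides of 0 in the compared treatments.

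The sums of the epithelial and mesenchymal markers had the same order of group means as Fzd1, Fzd7 and Vangl1. The summed epithelial markers, on a log2 scale, were 17.53, 17.71 and 17.66 in control replicates 1 to 3, 17.50, 17.44 and 17.33 with shNsd2, and 17.91, 17.68 and 18.04 with MCTP. The summed mesenchymal markers were 17.73, 17.79 and 17.79, then 17.57, 17.59 and 17.49, and 18.03, 17.88 and 18.05 in the same libraries. The abundant genes Krt8, Krt19 and Vim weigh most in these sums, and other markers of the same lists went other ways. Krt14 rose by 0.78 with shNsd2 (limma adjusted p = 2.22e-05), Cdh1 fell by 0.34 with MCTP (limma adjusted p = 0.00325) and Zeb1 fell by 0.23 with MCTP (limma adjusted p = 0.0407) on the log2 scale. As sums, both lists were lowest with shNsd2, and MCTP replicate 2 had the lowest sums of its group, its epithelial sum lying within the control range. The summed fibroblast markers were 8.34, 8.23 and 8.33 in control replicates, 8.01, 8.07 and 8.02 with shNsd2, and 8.07, 8.04 and 7.90 with MCTP. Col1a1 weighs most in this sum, with log2 fold changes of -0.30 with shNsd2 and -0.33 with MCTP. Pdgfra lay only just above the filter of 3.78, with mean log2 levels of 3.99 in control cells and 4.12 with shNsd2. At that low level it went the other way with shNsd2, at 0.13 (limma adjusted p = 0.00161). With MCTP Pdgfra was at 0.054 and did not pass (limma adjusted p = 0.0955). Cd68, the leukocyte marker with values, rose by 0.23 with shNsd2 (limma adjusted p = 0.00227) and 0.73 with MCTP (limma adjusted p = 0.000688) on the log2 scale. The part of these marker changes in the results for Wnt5a and its receptors was not tested.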

How the data were processed

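RNA-seq libraries of NPK cells, 3 each of control, shNsd2 and MCTP cells, were compared. The authors deposited log2 values, 1 per gene and library, for 12842 genes. The submitters' processing notes name bcl2fastq 1.8.4, TopHat, Cufflinks, DESeq, DESeq2 and the build mm9, with no role for each. Which transform was applied is not said in the file. In the paper the authors report normalizing counts and stabilizing the variance with DESeq2 for their tumour profiles. On such a scale low values are drawn together. The table has 12 value columns, of which 3 could not be matched to a sample and were left unused. Depth per library is unknown, and no count test was possible.

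Groups were taken from the sample titles. A gene was tested where at least 3 of the 6 libraries compared exceeded 3.78, which is the median of the lowest 10% of values. The tests were moderated t-tests in limma 3.58.1 (R 4.3.3; lmFit, then eBayes with trend), p-values were adjusted by Benjamini and Hochberg over every gene tested, and 0.05 was the threshold. An exact two-sided permutation test was added for single genes. Alternatives were no filter, 1 fit of all 9 libraries, a block for replicate number, leaving out each library, quantile normalization, median centring, no trend, and lowess corrections (span 0.3) for GC content, with and without the block, and for length. The GC correction also removes real changes that follow GC content. GC content and length came from GENCODE M21 (GRCm38), not from mm9, and 97.4% of gene identifiers matched it. 

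The genes and lists were chosen with earlier results of these data known. In each pathway list, at most 4 genes past the threshold in each comparison with control, largest change first, could be named, and others were only counted. The 5 genes most like Wnt5a were also named. Plots were made in Python 3.11.15 with matplotlib 3.10.9.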

Additional observations from a re-analysis of the deposited data

How the results depend on the processing

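The numbers of genes called with MCTP moved with the library left out. For shNsd2 against control, 5836 genes were called, and no alternative moved this by over 1.5 times. For MCTP against control, 4305 were called, and between 2046 (without MCTP replicate 1) and 7384 (without MCTP replicate 2) when a library was left out; leaving out control replicate 1, 2 or 3 or MCTP replicate 3 gave 2366, 2162, 2456 and 2842. For shNsd2 against MCTP, 5276 were called, and between 3391 (without MCTP replicate 1) and 7781 (without MCTP replicate 2), with 3429 and 3420 without shNsd2 replicates 2 and 3. Centring libraries on medians moved the share of higher calls with MCTP from 51.1% to 64.4%. Fewer libraries are compared in each leave-one-out fit, and why MCTP replicate 2 acts otherwise was not tested.

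The log2 fold change of Wnt5a with shNsd2 passed in all 15 alternatives. With MCTP it ran from -0.19 (without MCTP replicate 2, where it passed) to -0.055 (without MCTP replicate 3) when a library was left out. Directly between treatments it ran from -0.31 to -0.17 when a library was left out, and it lost its call in 4 of those 6 fits and under the replicate block (-0.23, limma adjusted p = 0.0943). All 15 alternatives kept the side of the threshold for 6 of 7 genes with shNsd2, 1 of 7 with MCTP and 5 of 7 in the direct comparison. No called log2 fold change reversed among the genes run under the alternatives, which did not include the cell type markers.

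The replicate numbers gave no sign of pairing. The mean correlation of same-numbered deviations from group means was -0.251 for shNsd2 and control, -0.186 for MCTP and control, and -0.362 for shNsd2 and MCTP. In 1 of 9 cases a library correlated best with its own number. The deviations of the 3 libraries of a group sum to 0, so these correlations are tied to each other and cannot show that the libraries were unpaired. Some libraries of unlike number deviated together, up to 0.836 for shNsd2 replicate 3 with MCTP replicate 2 and 0.8 for MCTP replicate 2 with control replicate 1, and the cause was not tested. With the replicate block, 4515, 3399 and 3794 genes were called in the 3 comparisons. Among the 7 genes, the block without a GC correction moved only the direct call of Wnt5a. Depth is unknown, so its limit on low levels cannot be given.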

Other observations

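Genes that secrete Wnt ligands or hold them back, and targets of the beta-catenin branch, were also measured. Of 15 secretion and inhibitor genes, 5 were tested. With shNsd2, 4 were lower (Dkk2, Kremen1, Notum and Wls) and 0 higher, with a median log2 fold change of -0.24, while 23.1% of all genes tested were higher and 24.8% lower. Wls, the carrier that brings Wnt ligands to the cell surface, had log2 levels of 12.50, 12.45 and 12.50 in control replicates 1 to 3, 12.14, 12.14 and 12.21 with shNsd2, and 12.56, 12.60 and 12.47 with MCTP. The shNsd2 libraries lay below all others, at a log2 fold change of -0.32 (SE 0.0355, limma adjusted p = 0.000140), and control and MCTP libraries overlapped. With MCTP the log2 fold change of Wls was 0.058 and did not pass (limma adjusted p = 0.404, range over the alternatives 0.00867 to 0.674), but the GC correction moved it to 0.24, where it passed. Dkk2, a secreted antagonist of Lrp co-receptors, fell by 0.92 with shNsd2 (SE 0.0535, limma adjusted p = 5.13e-06) and by 0.50 with MCTP (SE 0.0979, limma adjusted p = 0.00800) on the log2 scale. With MCTP, 1 gene was higher (Kremen1) and 2 were lower (Dkk2 and Porcn), against 18% and 17.2% of all genes tested. The median log2 fold change of the 5 genes with MCTP was -0.0042. Without MCTP replicate 2 the counts were 1 and 2, against 29.8% and 30.6% of all genes tested. The MCTP calls of Kremen1 and Porcn were lost in 7 and 8 of 15 alternatives, among them when control replicate 1, 2 or 3 or MCTP replicate 1 or 3 was left out, and the GC correction moved them from 0.20 to 0.11 and from -0.19 to -0.29.

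Of 11 targets of the beta-catenin pathway, 5 were tested. With shNsd2, 2 were higher (Myc and Tcf7) and 0 lower, against 23.1% and 24.8% of all genes tested. The 5 targets had a median log2 fold change of 0.086. With MCTP 0 were higher and 1 was lower (Myc), against 18% and 17.2% of all genes tested. The median log2 fold change of the 5 targets with MCTP was -0.15. Without MCTP replicate 2 the MCTP counts were 0 and 2, against 29.8% and 30.6%. Myc, which many pathways besides Wnt regulate, had log2 levels of 11.94, 12.12 and 12.17 in control replicates 1 to 3, 12.22, 12.28 and 12.30 with shNsd2, and 11.83, 11.75 and 11.77 with MCTP. The groups did not overlap. Directly between treatments its log2 fold change was 0.48 (SE 0.0464, limma adjusted p = 0.000269), in all 15 alternatives. The call of Myc with shNsd2 was lost without shNsd2 replicate 2 or 3, and its value moved from 0.19 to 0.12 without control replicate 1. With MCTP its call was lost without control replicate 2 or 3.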
